A study of Mus musculus with 8 samples.

Results

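The genes described here are 58 mouse factors that assemble and process ribosome precursors. They were chosen by name and not by their level, but with earlier results of these data known. They belong to the small-subunit processome, to late maturation of the small subunit, and to assembly of the large subunit. Entries of the deposited table were found for 57 of the 58, among 24791 genes with a symbol; Noc2l is not analysed here. All 57 reached 1 FPKM or more (fragments per kilobase of transcript, scaled to the depth of the library) in at least 2 of the 8 libraries and were tested, so no member was lost to the filter on low values.

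The study examined chromatin architecture during gamete and early embryo development, and these libraries measured RNA in mouse embryos. All came from strain C57BL/6 and were made with Smart-seq, an amplification of full-length cDNA from few cells. The 4 groups, of 2 libraries each, are named CX45, 8C, CX22 and 2C. The names 8C and 2C are the usual short forms for the 8-cell and 2-cell stage; CX45 and CX22 are not spelled out in the labels, which give neither a treatment nor a control. Nothing in the labels says whether the replicates came from separate embryos or pools, so the p-values reflect how these libraries vary and may hold technical spread alone. In embryos lysed whole, fewer cells and less RNA per cell cannot be told apart, and FPKM gives a share of the RNA, not an amount per embryo.

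Ribosomes are built in the nucleolus, where RNA polymerase I transcribes a long precursor of the ribosomal RNAs. The small-subunit processome forms on that precursor as it is made: the UTP-A complex binds near its start, followed by the UTP-B complex, the U3 small nucleolar ribonucleoprotein and the Mpp10 complex, while helicases and nucleases free and trim the 18S region. Large-subunit precursors mature on a separate path that uses the PeBoW complex, GTPases and many DEAD-box helicases. In mouse embryos the nucleolus precursor bodies of the zygote do not yet make ribosomal RNA, and active nucleoli form over the first cleavages.

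The depth implied by the steps of low FPKM values, in units of 1000 fragments, was 11020 and 12690 in CX45, 17850 and 20300 in 8C, 9730 and 12060 in CX22, against 12000 and 12830 in 2C. The 2C libraries differed by about the sampling noise and were counted as 1 sample. The CX22 libraries stood furthest apart: 333 genes were above 10 FPKM in one and listed at 0 in the other, against 46 in CX45, 15 in 8C and 7 in 2C, and 4 of the 57 members were above 1 FPKM in one CX22 library and listed at 0 in the other. The 6 markers of the 8-cell stage and later summed to 929 to 1210 FPKM in CX45, 1330 to 1670 in 8C, 52.3 to 74.7 in CX22 and 66.3 to 68.7 in 2C. Markers of the 2-cell stage, also 6, summed to 61.3 to 535 FPKM in CX45, 11.2 to 15.5 in 8C, 432 to 519 in CX22 and 357 to 370 in 2C. In CX45 the replicates disagreed, with Tcstv3 at 13.0 and 254 FPKM and Zfp352 at 20.9 and 179. Tdpoz4, of the same list, went the other way, with 9.15 and 9.57 FPKM in 8C against 0.972 and 0.699 in 2C. The 6 oocyte markers summed to 1010 to 1250 FPKM in CX45, 136 to 172 in 8C, 2510 to 102000 in CX22 and 2580 to 86100 in 2C, the width coming from Omt2b, listed at 100000 and 0 FPKM in the CX22 libraries and at 83500 and 0 in the 2C libraries. Of 7 cumulus and granulosa cell markers, 3 (Ptx3, Fshr and Amh) were listed at 0 in every library, and the 7 summed to 5.93 FPKM at most. The 6 sperm markers summed to 0 to 4.91 FPKM in CX45, 0 in 8C, 33.1 to 42.9 in CX22 and 18.7 to 19.7 in 2C. The 6 blood markers summed to 315 to 375 FPKM in CX45, 21.4 to 31.1 in 8C, 33.8 to 84.5 in CX22 and 106 in 2C. Hba-a1 alone gave 286 and 347 FPKM in CX45, 10.3 and 28.7 in 8C, 23.6 and 71.2 in CX22, against 106 and 104 in 2C. Ptprc, Tyrobp and Hbb-b1 were at 0.0701, 0.634 and 0.785 FPKM at most. Cd52 had 18.8 and 19.6 FPKM in CX45, 10.8 and 2.45 in 8C, and 0.493 at most in CX22 and 2C. Lyz2 had 9.61 and 7.45 FPKM in CX45, 0 in 8C, 10.2 and 11.8 in CX22, against 0 and 1.91 in 2C. What part oocyte, sperm or blood RNA had in the member results was not tested.

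The members fell into a high and a low pair of groups. Their median level was 47.5 FPKM in CX45, 51.7 in 8C, 7.37 in CX22 and 7.62 in 2C, whereas the median over all 11853 genes tested was 5.04, 3.13, 4.37 and 4.65 FPKM in the same groups. Summed over the members, the libraries held 5478 and 5589 FPKM in CX45, 5113 and 5839 in 8C, 1315 and 1000 in CX22, against 1016 and 984 in 2C. No library of CX45 or 8C came near any library of CX22 or 2C in this sum. Brix1, a large-subunit assembly factor with a conserved RNA-binding fold, was the highest member in CX45 at 549 FPKM, in CX22 at 251 FPKM and in 2C at 246 FPKM, and Nop16, another large-subunit factor, was the highest in 8C at 564 FPKM. More than 10 FPKM was reached by 53 members in CX45, 52 in 8C, 25 in CX22 and 23 in 2C.

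**Figure D1:**
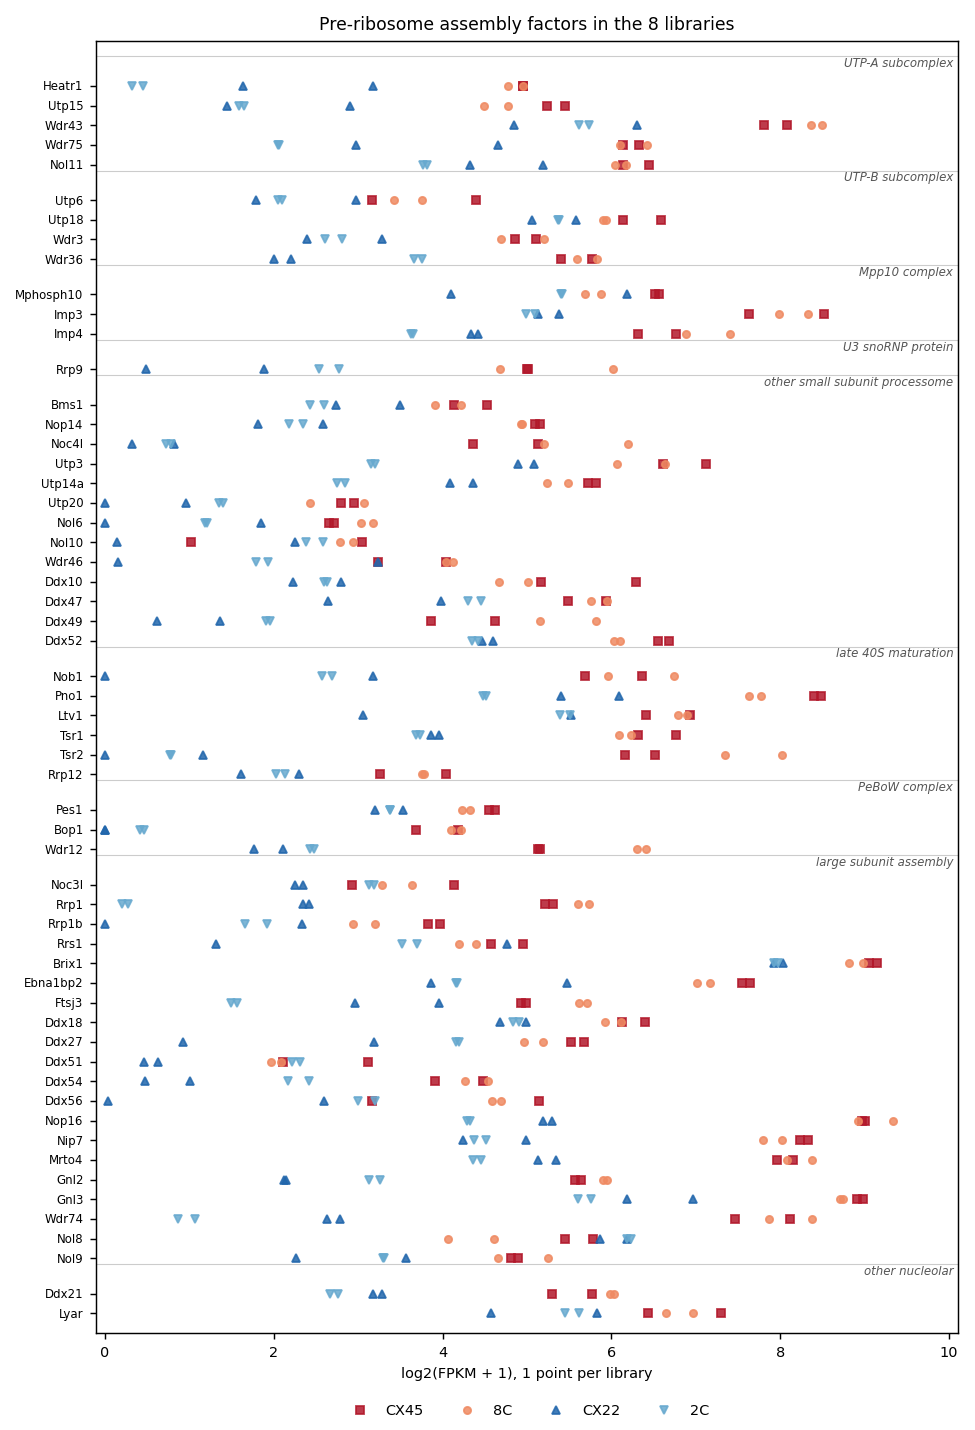
Level of each of the 57 members in each of the 8 libraries, as log2(FPKM + 1) on the horizontal axis, grouped by role; 1 symbol is 1 library and the 4 groups differ in colour and shape. For most members the CX45 and 8C symbols lie to the right of the CX22 and 2C symbols; Nol8, with its lowest symbols in 8C, and Ddx51, with its lowest in CX22, do not follow that order.

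Against 2C, 33 members rose in 8C, 1 fell and 23 were not called. A gene was called when limma, run over every gene tested and all groups, gave a log2 fold change of 1 or more in size on the log2(FPKM + 1) scale and a Benjamini-Hochberg adjusted p below 0.05. The spread of a gene is pooled over all groups, so libraries that differ in CX22 also widen the standard error of 8C over 2C. Of all genes tested 37.1% were called in this comparison, 16.4% higher and 20.7% lower in 8C. The members' median log2 fold change was 2.32, against -0.04 over all genes tested. Every 8C library was above every 2C library for 55 members and below for 2, where 43.3% and 46.6% of all genes tested were apart in these directions. At an unadjusted p below 0.05, 39 members were higher and 1 lower, where 49.1% of all genes tested passed in either direction. In plain FPKM the median ratio of 8C to 2C was 5.87, and 47 of the 57 members were at 2-fold or more. Leaving out 8C replicate 1 or 8C replicate 2 lowered the calls to 16, all higher. Of the 34 calls, 15 held under every one of 15 alternative settings: Ddx21, Ftsj3, Gnl2, Gnl3, Imp4, Mrto4, Nip7, Nop16, Pno1, Rrp1, Tsr2, Utp14a, Utp3, Wdr12 and Wdr74. The other 19 were lost under at least 1 setting. Calls over all genes also fell without either 8C library. The members' median log2 fold change was then 2.26 without replicate 1 and 2.4 without replicate 2.

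Between CX45 and CX22, 44 members rose in CX45, none fell and 13 were not called. Of all genes tested 36.6% were called here, 23.1% higher and 13.5% lower in CX45. The median log2 fold change of the members was 2.39 (2.38 over the 56 members left without Bop1, which was listed at 0 in CX22), against 0.47 over all genes tested. Both CX45 libraries were above both CX22 libraries for 53 members and below for 1 (41.5% and 23.5% of all genes tested), and 48 members were higher at an unadjusted p below 0.05 (47.5% of all genes in either direction). The count dropped to 23 without CX45 replicate 1, to 25 without CX45 replicate 2 and to 28 without either 8C library, and 21 of the 44 calls held under all 15 settings: Bop1, Ddx10, Ddx21, Ddx52, Ddx54, Gnl2, Gnl3, Imp3, Imp4, Mrto4, Nip7, Noc4l, Nop14, Nop16, Pno1, Rrp1, Tsr1, Tsr2, Wdr12, Wdr36 and Wdr74. The other 23 were lost under at least 1 setting. Calls over all genes also fell without either CX45 library and without either 8C library. The members' median log2 fold change was then 2.4 and 2.39. This comparison shares no library with the one of 8C and 2C, although the fit pools their spread. All 33 members that rose in 8C over 2C were among the 44 that rose in CX45 over CX22, which is 100% of the 33 and 75% of the 44. The same overlap was not counted over all genes, so it cannot be called particular to the members. The 11 members called higher in CX45 over CX22 alone were Brix1, Ddx27, Ddx47, Ddx51, Nob1, Nol9, Pes1, Rrp12, Rrp9, Utp18 and Utp20; whether either difference exceeds the other was not tested.

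**Figure D2:**
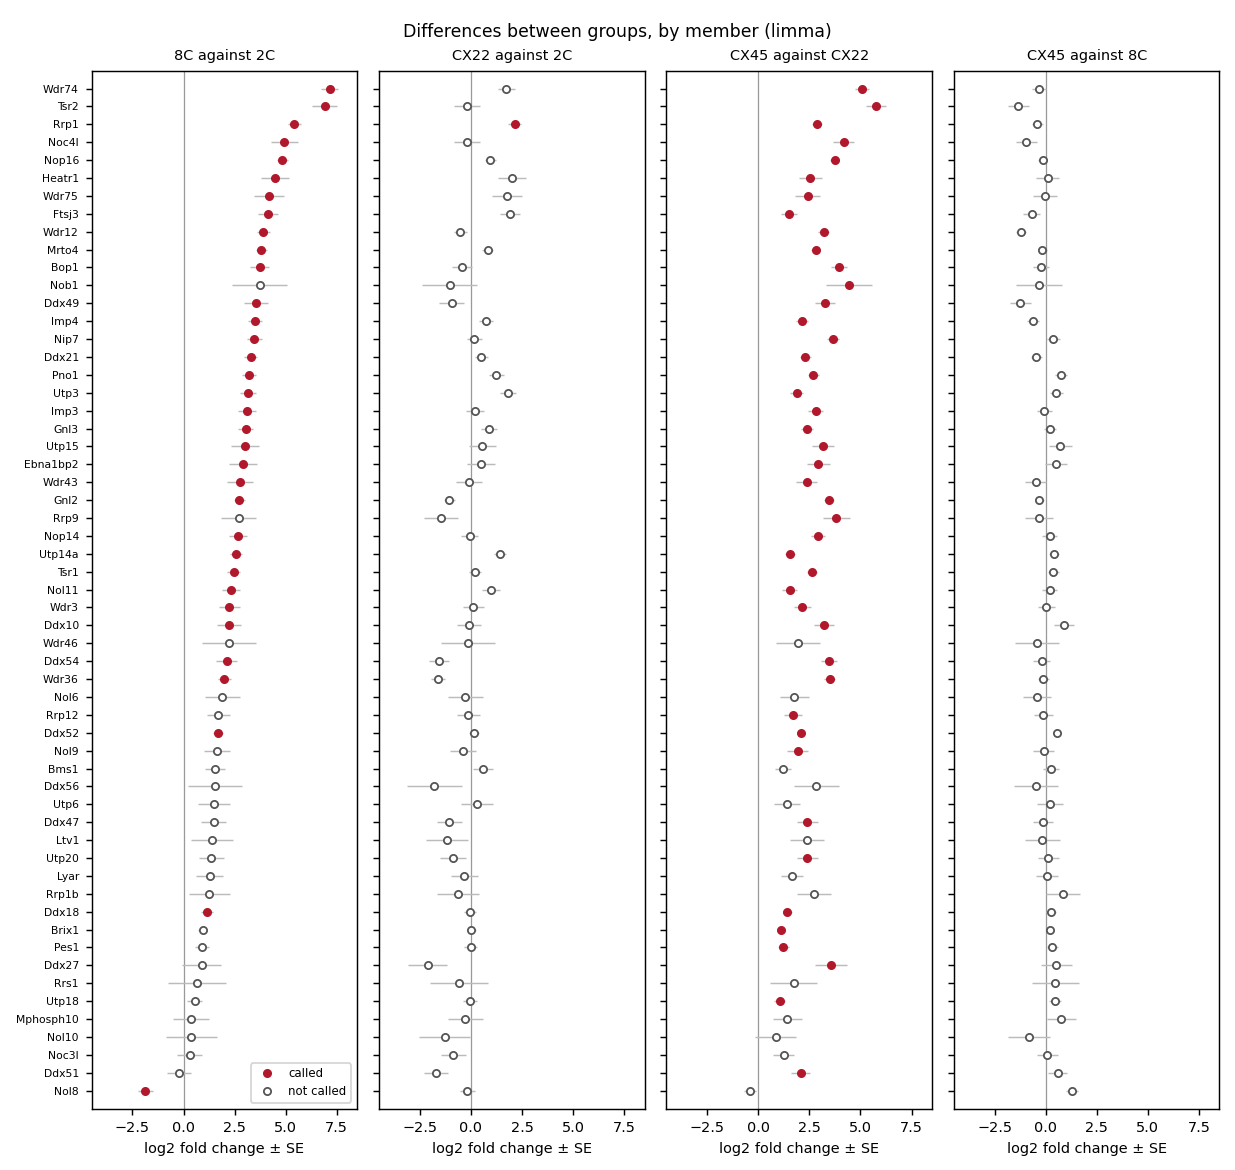
Log2 fold changes of the 57 members, on the log2(FPKM + 1) scale, with their standard errors, for 8C against 2C, CX22 against 2C, CX45 against CX22 and CX45 against 8C; members are ordered by the first panel and filled points mark those called. Most members lie well above 0 for 8C against 2C and for CX45 against CX22, and spread on either side of 0 for CX22 against 2C and CX45 against 8C.

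The promoters of the listed genes, whether or not they were called, were searched for 7 short motifs in RefSeq windows that run 250 bases before to 50 bases after the gene start (build GRCm38.p6, not the mm9 build of the expression table). Windows were available for 51 of the 58 genes, 57 windows in all, Noc2l included. The letters CCGGAAG, found in binding sites of ETS-family factors, occurred on either strand in 40.4% of the members' windows, 8.9% of all 32851 windows and 17.3% of the 11989 windows of genes tested. The letters CACGTG, the E-box bound by MYC and related factors, occurred in 19.3% of the members' windows, 7.2% of all windows and 10% of those of genes tested. The TCTCGCGA motif occurred in 7.0% of the members' windows, 1.0% of all windows and 2.4% of those of genes tested, and the letters TATAAA in 3.5%, 13.6% and 8.5% of them. The other searched letters were nearer to the genes tested: GGGCGG, the GC box, occurred in 61.4% of the members' windows, 35.7% of all and 58.6% of those of genes tested, TGCGCA, from the NRF1 site, in 8.8%, 7.8% and 13.5%, and AAGATGG, from the YY1 site, in 7.0%, 6.3% and 7.1%. Among the 30 genes that rose in 8C over 2C and had a window, 10 held CCGGAAG and 6 held CACGTG; among the 19 with a window that were not called, 10 and 5 did. A match is a description of the letters and not a measured binding site. The stretches below show the ETS letters in the member with the highest fold change (Wdr74), in a UTP-A subunit (Heatr1) and in a large-subunit factor (Nip7), and the E-box letters in an Mpp10 complex subunit (Imp4) and another UTP-A subunit (Nol11); capitals mark the motif, and each runs 5′ to 3′ along the strand of the gene.
Wdr74, chr19:8735779-8735838, plus strand: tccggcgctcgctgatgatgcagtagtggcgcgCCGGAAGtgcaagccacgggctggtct
Heatr1, chr13:12395315-12395374, plus strand: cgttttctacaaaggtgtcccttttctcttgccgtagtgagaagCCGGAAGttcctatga
Nip7, chr8:107056747-107056806, plus strand: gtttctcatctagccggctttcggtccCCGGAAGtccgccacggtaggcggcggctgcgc
Imp4, chr1:34439679-34439738, plus strand: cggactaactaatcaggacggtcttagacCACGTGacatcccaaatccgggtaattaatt
Nol11, chr11:107189382-107189441, minus strand: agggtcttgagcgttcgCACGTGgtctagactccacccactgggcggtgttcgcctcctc

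All 5 listed UTP-A subunits rose in 8C over 2C and in CX45 over CX22, but none of these calls held under every setting. Without 8C replicate 1 or without 8C replicate 2 none of the 5 passed for 8C over 2C (adjusted p between 0.0696 and 0.125, limma), and without either CX45 library none passed for CX45 over CX22 (between 0.0713 and 0.15). Nol11 was also lost with its highest entry alone, at an adjusted p of 0.499 for 8C over 2C and 0.126 for CX45 over CX22. Heatr1, a large HEAT-repeat protein (mm9 chr13:12487642-12531160) whose promoter letters are shown above, had 30.1 and 30.0 FPKM in CX45, 29.9 and 26.3 in 8C, 8.03 and 2.11 in CX22, against 0.368 and 0.253 in 2C. The CX22 libraries lay between 2C and the other groups and differed from each other by more than 2-fold. Its log2 fold change was 4.47 ± 0.70 (SE) for 8C over 2C (adjusted p = 0.0109, limma) and 2.55 for CX45 over CX22 (adjusted p = 0.0267). Wdr43, the counterpart of yeast Utp5, had 222 and 271 FPKM in CX45, 329 and 359 in 8C, 78.3 and 27.8 in CX22, against 52.1 and 47.9 in 2C. It was the most abundant of the 5 in every group, and its CX22 libraries lay on either side of 2C; the log2 fold change was 2.76 for 8C over 2C (adjusted p = 0.0289) and 2.37 for CX45 over CX22 (adjusted p = 0.025). Utp15, Wdr75 and Nol11, the other listed subunits, had log2 fold changes of 3.01, 4.20 and 2.32 for 8C over 2C. The median of the 5 was 3.01 for 8C over 2C and 2.41 for CX45 over CX22. Utp4, a UTP-A subunit outside the members, had a log2 fold change of 2.22 for 8C over 2C and was not called.

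Of the 4 listed subunits of UTP-B, which is recruited after UTP-A, Wdr3 and Wdr36 rose in 8C over 2C. Utp6 and Utp18 were not called. Pwp2 and Tbl3, UTP-B subunits outside the members, also rose in 8C over 2C, by 3.11 and 3.25 on the log2 scale. Wdr36 had 41.2 and 53.5 FPKM in CX45, 56.0 and 47.3 in 8C, 3.0 and 3.6 in CX22, against 11.7 and 12.5 in 2C. The CX22 libraries were the lowest, below both 2C libraries; the log2 fold change was 2.00 for 8C over 2C (adjusted p = 0.0131, limma) and 3.48 for CX45 over CX22 (adjusted p = 0.0039), and -1.61 for CX22 over 2C did not pass (adjusted p = 0.0918). Utp18 had 94.8 and 69.5 FPKM in CX45, 58.8 and 60.3 in 8C, 46.9 and 32.4 in CX22, against 40.6 and 40.2 in 2C. Its 8C and 2C libraries did not overlap, but the log2 fold change was 0.55 ± 0.35 (SE, adjusted p = 0.274); for CX45 over CX22 it was 1.04 (adjusted p = 0.0476). That call was lost in most settings, with an adjusted p of 0.0524 at a pseudocount of 0.1, 0.0675 without the filter, and 0.201 with a log2 fold change of 0.63 after quantile normalization.

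In the Mpp10 complex, 2 of 3 subunits rose and the scaffold after which it is named was not called. Imp4, which in yeast helps pair U3 with the precursor, had 78.4 and 108 FPKM in CX45, 118 and 168 in 8C, 20.5 and 19.2 in CX22, against 11.4 and 11.6 in 2C. The 4 groups did not overlap, and the log2 fold change was 3.51 for 8C over 2C (adjusted p = 0.0041, limma) and 2.16 for CX45 over CX22 (adjusted p = 0.0085). Mphosph10 had 90.7 and 93.8 FPKM in CX45, 50.6 and 57.9 in 8C, 71.8 and 16.1 in CX22, against 41.4 and 41.5 in 2C. The CX22 libraries spanned the 8C and 2C values, and none of its differences was called. For 8C over 2C its log2 fold change was 0.38 (95% interval -1.90 to 2.65). That interval rests on the spread pooled over all groups, so the gap between the CX22 libraries widens it. Imp3, the partner of Imp4, rose by 3.12 on the log2 scale in 8C over 2C and by 2.82 in CX45 over CX22. The U3 protein Rrp9 had 31.3 and 31.1 FPKM in CX45, 24.7 and 64.1 in 8C, 0.399 and 2.69 in CX22, against 4.82 and 5.82 in 2C. It was lowest in CX22; the rise in CX45 over CX22 was called, at 3.82 (adjusted p = 0.0153), and the difference of 2.69 between 8C and 2C was not (adjusted p = 0.0621).

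Of the 13 other processome factors, 7 rose in 8C over 2C and 9 in CX45 over CX22. Noc4l, which in yeast pairs with Nop14, had 19.5 and 34.0 FPKM in CX45, 35.7 and 72.1 in 8C, 0.251 and 0.77 in CX22, against 0.653 and 0.725 in 2C. Every CX45 and 8C library was more than 10 FPKM above every CX22 and 2C library; the log2 fold change was 4.94 ± 0.64 (SE) for 8C over 2C (adjusted p = 0.0072, limma) and 4.17 for CX45 over CX22 (adjusted p = 0.0074). Nop14 had 34.6 and 33.1 FPKM in CX45, 29.5 and 29.8 in 8C, 2.53 and 5.01 in CX22, against 4.1 and 3.54 in 2C, with a log2 fold change of 2.67 for 8C over 2C (adjusted p = 0.012). Bms1, the processome GTPase, had 22.1 and 16.6 FPKM in CX45, 17.6 and 14.0 in 8C, 10.3 and 5.66 in CX22, against 4.38 and 5.03 in 2C. Its groups 8C and 2C were apart, yet the log2 fold change of 1.55 missed the threshold (adjusted p = 0.0627). Among the 4 DEAD-box helicases of this stage, Ddx10, Ddx49 and Ddx52 rose in 8C over 2C, by 2.23, 3.55 and 1.68 on the log2 scale, and Ddx47 was not called. Ddx10 had 77.5 and 34.8 FPKM in CX45, 31.2 and 24.5 in 8C, 3.67 and 5.94 in CX22, against 5.04 and 5.2 in 2C. Its CX45 libraries differed by more than 2-fold and both lay above 8C. Ddx52 had 101 and 92.7 FPKM in CX45, 67.5 and 64.4 in 8C, 21.1 and 23.3 in CX22, against 20.5 and 19.4 in 2C, with CX45 above 8C and both of these far above CX22 and 2C. Utp3 and Utp14a, for which yeast counterparts are a processome core protein and an activator of a helicase, rose by 3.18 and 2.56 in 8C over 2C.

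Of the 6 late factors of the small subunit, 3 rose in 8C over 2C, and 5 rose in CX45 over CX22. Tsr2, a chaperone that hands the ribosomal protein eS26 to the precursor in yeast (mm9 chrX:147521637-147531086), had 70.7 and 90.9 FPKM in CX45, 162 and 260 in 8C, 1.24 and 0 in CX22, against 0.719 and 0.714 in 2C. It was under 2 FPKM in every CX22 and 2C library and highest in 8C, with no overlap between CX45 and 8C. The log2 fold change was 6.91 ± 0.62 (SE) for 8C over 2C (adjusted p = 0.00333, limma) and 5.76 for CX45 over CX22 (adjusted p = 0.00454). In 2C and CX22 all of it was listed under a non-coding entry of the gene, whereas in 8C both coding entries carried it, 46.2% and 53.8%. Nob1, the endonuclease that makes the last cut of 18S RNA, had 50.4 and 81.1 FPKM in CX45, 61.5 and 106 in 8C, 8.01 and 0 in CX22, against 5.46 and 4.96 in 2C. Its 8C libraries were far above its 2C libraries. The gap between its CX22 libraries enters the pooled standard error of 8C over 2C, a comparison without CX22. CX22 replicate 2 was listed at 0; 8C over 2C was not called at 3.72 (adjusted p = 0.0918), and CX45 over CX22 passed at 4.44 (adjusted p = 0.0359). Tsr1, which resembles a GTPase, had 107 and 78.6 FPKM in CX45, 74.5 and 67.1 in 8C, 14.6 and 13.6 in CX22, against 11.9 and 12.3 in 2C, and rose by 2.46 in 8C over 2C (adjusted p = 0.00638). Pno1, a partner of Nob1, rose by 3.21 in 8C over 2C and by 2.70 in CX45 over CX22.

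In the PeBoW complex, which processes the precursor of the large-subunit RNAs, the 3 subunits had unlike levels. Wdr12 had 34.6 and 34.0 FPKM in CX45, 78.1 and 84.3 in 8C, 2.41 and 3.32 in CX22, against 4.4 and 4.58 in 2C. None of the 4 groups overlapped; the log2 fold change was 3.90 ± 0.32 (SE) for 8C over 2C (adjusted p = 0.0027, limma) and 3.20 for CX45 over CX22 (adjusted p = 0.00411). Bop1 had 17.2 and 11.9 FPKM in CX45, 17.7 and 16.2 in 8C, and 0.336 and 0.377 in 2C, and it was listed at 0 in both CX22 libraries. It rose by 3.73 in 8C over 2C (adjusted p = 0.00661), and no fold is given against CX22. Pes1 had 22.5 and 23.6 FPKM in CX45, 19.0 and 17.8 in 8C, 8.22 and 10.6 in CX22, against 9.37 and 9.39 in 2C. Its CX22 and 2C libraries together spanned 8.22 to 10.6 FPKM; it rose in CX45 over CX22 by 1.22 (adjusted p = 0.0253), and 0.90 for 8C over 2C was not called (adjusted p = 0.0899).

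**Figure D3:**
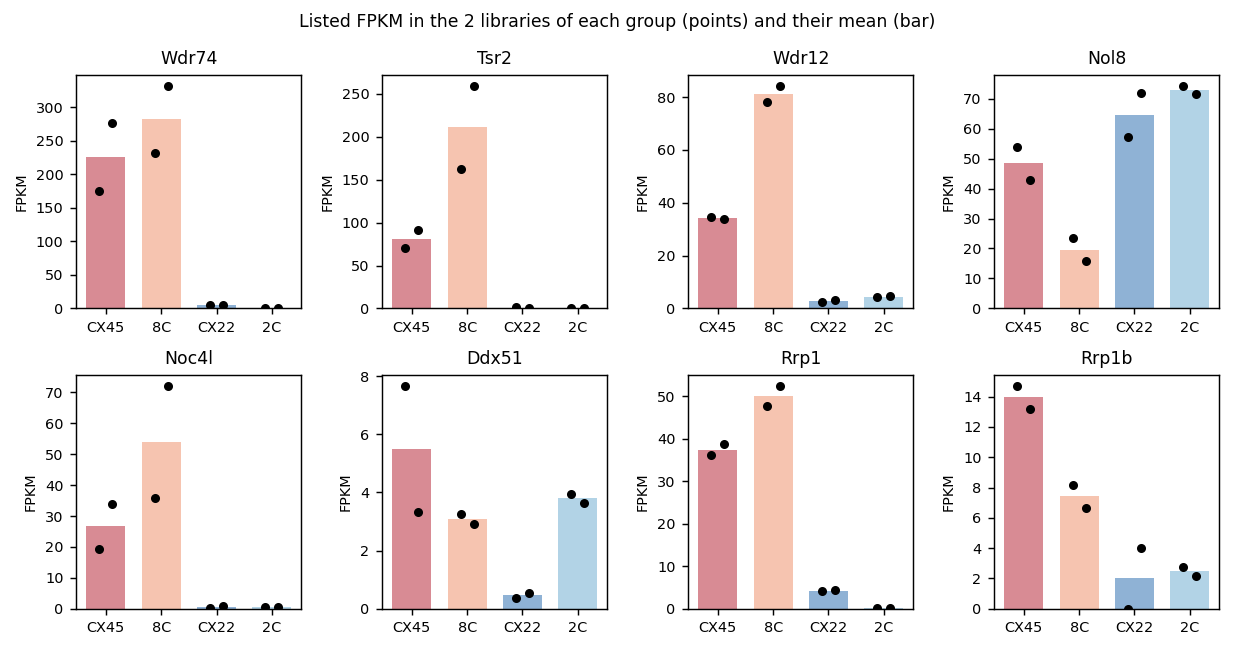
FPKM of 8 members in each library (points) with the mean of the 2 libraries of a group (bars), on axes that start at 0 and differ between panels. Wdr74, Tsr2, Wdr12, Noc4l and Rrp1 are high in CX45 and 8C alone, Nol8 is lowest in 8C, Ddx51 is lowest in CX22, and Rrp1b has its highest values in CX45.

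Among the 20 other large-subunit factors with values, 11 rose and 1 fell in 8C over 2C, and 15 rose in CX45 over CX22. Wdr74, the counterpart of yeast Nsa1 on the early large-subunit precursor (mm9 chr19:8810329-8815114), had 175 and 277 FPKM in CX45, 232 and 332 in 8C, 5.18 and 5.9 in CX22, against 0.829 and 1.1 in 2C. CX45 and 8C overlapped, and CX22 lay above 2C. Its log2 fold change of 7.15 ± 0.41 (SE) for 8C over 2C was the highest of the members (adjusted p = 0.00198, limma), and it was 5.08 for CX45 over CX22 (adjusted p = 0.00351). Nop16 had 499.8 and 511 FPKM in CX45, 482 and 646 in 8C, 38.4 and 35.5 in CX22, against 18.5 and 19.0 in 2C. CX45 again lay within the 8C values; the log2 fold changes were 4.82 for 8C over 2C (adjusted p = 0.00198) and 3.74 for CX45 over CX22 (adjusted p = 0.00323). Gnl3, nucleostemin, a nucleolar GTPase, had 502 and 480.5 FPKM in CX45, 418 and 428 in 8C, 124 and 71.7 in CX22, against 53.3 and 47.5 in 2C, and rose by 3.04 in 8C over 2C (adjusted p = 0.00612). Brix1 had 565 and 532 FPKM in CX45, 505 and 450.3 in 8C, 260.1 and 242 in CX22, against 250.1 and 242 in 2C. It was abundant in every group, and its ratio of 1.94 between 8C and 2C left the log2 fold change of 0.95 just under the required 1, with an adjusted p of 0.0301. For CX45 over CX22 it was 1.12 (adjusted p = 0.0121), and 0.31 (adjusted p = 0.336) after quantile normalization.

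The methyltransferase Ftsj3 had 30.7 and 29.6 FPKM in CX45, 47.9 and 51.3 in 8C, 14.5 and 6.8 in CX22, against 1.82 and 1.95 in 2C. All 4 groups were apart, and it rose by 4.13 in 8C over 2C (adjusted p = 0.00561, limma). Rrs1, which brings in the 5S particle, had 30.0 and 22.9 FPKM in CX45, 20 and 17.3 in 8C, 26.2 and 1.49 in CX22, against 12.0 and 10.5 in 2C. Its CX22 libraries spanned most of the range of the other groups, its standard error was the highest among the members, and it was called in no comparison. Mrto4, whose yeast counterpart holds the place of a stalk protein, Nip7 and Ebna1bp2 rose by 3.81, 3.46 and 2.93 in 8C over 2C, and the GTPase Gnl2 by 2.73. Of the 5 listed DEAD-box helicases of the large subunit, Ddx18 and Ddx54 rose in 8C over 2C. Ddx27, Ddx51 and Ddx56 were not called. Ddx18 had 68.9 and 83.3 FPKM in CX45, 59.8 and 68 in 8C, 30.8 and 24.7 in CX22, against 28.9 and 27.5 in 2C. Its CX22 libraries lay on either side of 2C, and its rise of 1.15 in 8C over 2C (adjusted p = 0.0377) was the smallest called. Ddx54 had 21.3 and 14 FPKM in CX45, 22.3 and 18.2 in 8C, 0.39 and 1.01 in CX22, against 3.49 and 4.34 in 2C. It was lowest in CX22, and rose by 2.10 in 8C over 2C (adjusted p = 0.0319) and by 3.45 in CX45 over CX22 (adjusted p = 0.00668).

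Nol8, a nucleolar factor, was the single member that fell in 8C over 2C. It had 53.9 and 42.9 FPKM in CX45, 23.4 and 15.7 in 8C, 57.1 and 71.8 in CX22, against 74.3 and 71.5 in 2C. The 8C libraries were below all others and CX45 lay between 8C and CX22. The log2 fold change was -1.87 ± 0.37 (SE) for 8C over 2C (adjusted p = 0.0197, limma), with adjusted p ranging over the alternatives between 0.00167 and 0.0862. For CX45 over 8C it was 1.28 (95% interval 0.49 to 2.07), which did not pass over all genes (adjusted p = 0.123, range 0.0385 to 0.503), and for CX45 over CX22 it was -0.41 (adjusted p = 0.346).

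The paralogues Rrp1 and Rrp1b, both counterparts of yeast Rrp1, had different profiles. Rrp1 had 36.1 and 38.7 FPKM in CX45, 47.6 and 52.4 in 8C, 4.07 and 4.36 in CX22, against 0.207 and 0.155 in 2C. None of the 4 groups overlapped, and the 2C values stood close to what 3 fragments on a transcript of 2 kb would give (0.125 and 0.117 FPKM). Its log2 fold change was 5.43 ± 0.31 (SE) for 8C over 2C (adjusted p = 0.00198, limma) and 2.88 for CX45 over CX22 (adjusted p = 0.00464). Rrp1b had 14.7 and 13.2 FPKM in CX45, 8.17 and 6.67 in 8C, 0 and 4.03 in CX22, against 2.78 and 2.17 in 2C. It was highest in CX45, CX22 replicate 1 was listed at 0, and none of its differences was called (1.27 for 8C over 2C, adjusted p = 0.368; 2.74 for CX45 over CX22, adjusted p = 0.0603). How far reads were shared between these related genes is not given in the sources used here.

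Noc4l and Ddx51 on chromosome 5 (mm9 chr5:111077438-111082401 and chr5:111082470-111089515) were the nearest neighbours among the members. They are transcribed away from each other, with 68 bases between their RefSeq starts in GRCm38.p6 (chr5:110653383-110653450, plus strand), of which 73.5% are G or C; neither CCGGAAG nor CACGTG occurs in it. It is shown whole because the 2 genes share it and had unlike values.
Noc4l and Ddx51, between the starts: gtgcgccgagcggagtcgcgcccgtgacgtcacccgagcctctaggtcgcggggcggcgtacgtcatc
Ddx51, a helicase of the early large-subunit precursor, had 7.66 and 3.32 FPKM in CX45, 3.26 and 2.9 in 8C, 0.38 and 0.545 in CX22, against 3.95 and 3.65 in 2C. Thus the Noc4l values were low in both CX22 and 2C. The Ddx51 values were lowest in CX22, reached at most 3.95 FPKM in 8C and 2C, and lay lower in 8C than in 2C. For CX22 over 2C the log2 fold change of Ddx51 was -1.72 (95% interval -3.24 to -0.19), which was not called. The log2 fold change of Ddx51 was -0.24 for 8C over 2C (95% interval -1.76 to 1.29, adjusted p = 0.776, limma) and 2.07 for CX45 over CX22 (adjusted p = 0.0287). The Ddx51 call for CX45 over CX22 was lost without the filter (adjusted p = 0.0505, limma) and after quantile normalization (0.112). It was also lost with some of the libraries left out. The kit is not described as keeping strand, so reads from overlapping genes could not be told apart; 13 members overlap another gene in the table, among them Tsr2 (Fgd1), Wdr12 (Carf), Bop1 (Mroh1 and Scx) and Ftsj3 (Ddx42), and Noc4l and Ddx51 do not.

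Of the nucleolar proteins that act more broadly, Ddx21, a helicase that links RNA polymerase I transcription with processing, had 38.2 and 53.7 FPKM in CX45, 64.6 and 62.2 in 8C, 8.75 and 8.01 in CX22, against 5.79 and 5.37 in 2C. Each group was apart from the others; it rose by 3.29 in 8C over 2C (adjusted p = 0.00394, limma) and by 2.31 in CX45 over CX22 (adjusted p = 0.00657). Lyar was not called in any comparison.

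For CX22 against 2C, 1 of 57 members was called. Of all genes tested 3.88% were called, 0.599% higher and 3.28% lower in CX22. The members' median log2 fold change was -0.09 (-0.08 without Bop1), against -0.07 over all genes tested; at an unadjusted p below 0.05, 9 members were higher and 4 lower, where 16.2% of all genes passed in either direction. The one called was Rrp1, at 2.14 ± 0.31 (SE, adjusted p = 0.0394, limma), with the 2C values near the floor named above and an adjusted p between 0.00387 and 0.188 over the alternatives. No member was called without either 2C library, either 8C library or either CX45 library; 2 were called without CX22 replicate 1 and 7 without CX22 replicate 2. Calls over all genes also rose without either CX22 library. The largest differences above 2C that did not pass were Heatr1 at 2.02 (95% interval 0.19 to 3.84), Ftsj3 at 1.93 (0.66 to 3.20), Utp3 at 1.81 (0.79 to 2.84), Wdr75 at 1.76 (-0.15 to 3.67) and Wdr74 at 1.73 (0.65 to 2.81). Those furthest below 2C were Ddx27 at -2.12 (-4.61 to 0.37), Ddx56 at -1.79 (-5.29 to 1.71), Ddx51 at -1.72 (-3.24 to -0.19), Wdr36 at -1.61 (-2.49 to -0.73) and Ddx54 at -1.56 (-2.87 to -0.25). The 95% interval stayed within a 2-fold change in either direction for 5 of the 57 members, namely Brix1, Ddx18, Ddx52, Pes1 and Utp18. Within CX22, 21 members differed by more than 2-fold between the libraries on the FPKM + 1 scale, 36.8% of the members beside 38.5% of all genes tested, and 14 of the 21 were higher in replicate 1.

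For CX45 against 8C, no member was called by limma. Of all genes tested 0.658% were called, 0.456% higher and 0.202% lower in CX45. At an unadjusted p below 0.05, Nol8 and Ddx52 were higher and Wdr12 and Tsr2 lower, where 19.3% of all genes passed in either direction. The members' median log2 fold change was 0.03, against 0.31 over all genes tested; after quantile normalization, which brought the median over all genes to 0, the members' median was -0.20. The median ratio of CX45 to 8C was 1.01, and 51 of 57 members were within 2-fold. Both CX45 libraries were above both 8C libraries for 21 members and below them for 12, where 40.4% and 16.6% of all genes tested were apart in these directions, and 24 overlapped. The lowest log2 fold changes were -1.34 for Tsr2 (95% interval -2.67 to -0.01), -1.24 for Ddx49, -1.22 for Wdr12 (-1.90 to -0.54, adjusted p = 0.108, range 0.033 to 0.512) and -0.95 for Noc4l. The highest after Nol8 were 0.89 for Ddx10, 0.83 for Rrp1b and 0.76 for Mphosph10. For 6 members (Brix1, Ddx18, Gnl2, Mrto4, Nop16 and Wdr36) the interval stayed within 2-fold in either direction, and for 17 it reached 4-fold, so a lack of calls does not show equal levels.

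**Figure D4:**
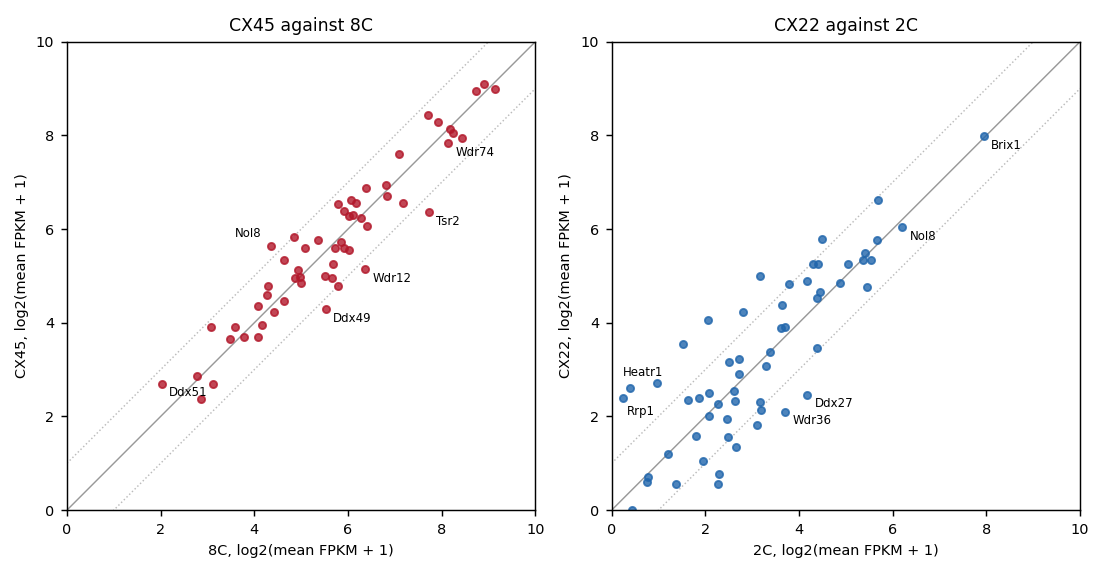
Mean levels of the 57 members, as log2(FPKM + 1), in CX45 against 8C and in CX22 against 2C; each point is 1 member, the solid line marks equal levels, the dotted lines 2-fold on this scale, and some members are named. Points follow the line in both panels with more scatter among the lower levels of CX22 and 2C.

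The remaining comparison, CX45 against 2C, shares its groups with those above. In it 34 members rose and none fell, where 29.8% of all genes tested were called, 16.2% higher and 13.6% lower in CX45. The median log2 fold change was 2.30, against 0.33 over all genes tested. The members' median was 2.41 without CX45 replicate 1, 2.35 without CX45 replicate 2 and 2.30 without either 8C library. Calls over all genes fell in those settings. Both CX45 libraries were above both 2C libraries for 52 members and below for 1 (47.3% and 38.3% of all genes tested), and 39 members were higher at an unadjusted p below 0.05 (44.5% of all genes in either direction). The count was 19 without either CX45 library and 20 without either 8C library, and 18 of the 34 calls held under all 15 settings. Bms1 and Brix1, not called for 8C over 2C, were called here at 1.82 (adjusted p = 0.0483, limma) and 1.15 (adjusted p = 0.0234). Neither call held under all settings: the adjusted p of Bms1 ranged up to 0.149, without CX45 replicate 1, and Brix1 was at 0.37 with an adjusted p of 0.352 after quantile normalization. Wdr43, at 2.27 (adjusted p = 0.0542), and Nol8, at -0.59 (adjusted p = 0.275), were not called.

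On the small-subunit side 19 of 32 members rose in 8C over 2C and 25 of 32 in CX45 over CX22, and on the large-subunit side 13 of 23 and 18 of 23 did; the 2 sides were not tested against each other. Over all genes tested, 16.4% rose in 8C over 2C and 23.1% in CX45 over CX22. In a list of 62 other ribosome assembly factors, all tested, 36 rose in 8C over 2C and none fell, with a median log2 fold change of 2.47, and 40 rose in CX45 over CX22 with a median of 2.34. None of the 62 was called for CX22 over 2C (3 higher and 2 lower at an unadjusted p below 0.05) or for CX45 over 8C (3 and 3). Among them Eif6, which keeps the large subunit from joining too early, rose by 4.30 in 8C over 2C (adjusted p = 0.00341, limma), and Dcaf13, another processome protein, averaged 495 FPKM in 8C and 33.8 FPKM in 2C.

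Of the members, 12 had more than 1 transcript entry, and for some of them the entry that carried the FPKM differed between groups. All of Wdr3 was listed under 1 coding entry in CX22 and 2C and under another in 8C. In CX45 the libraries disagreed: Wdr3 stood at 33.4 FPKM under the CX22 and 2C entry and 0 under the 8C entry in replicate 1, and at 4.08 and 23.9 FPKM under them in replicate 2. Gnl3 had 42.3 and 48.9 FPKM under a non-coding entry in the CX22 libraries, beside 81.2 and 22.8 FPKM under its coding entry, and none under the non-coding one in CX45, 8C or 2C. Nol8 and Ddx49 did not differ in this way: the same entry held 94.8% or more of Nol8 and 86.5% or more of Ddx49 in every group. Rrp1b in 8C was listed wholly under the entry with the longer locus, which held 91.2% in CX45, none in CX22 and 24.5% in 2C. Entries of 1 gene overlap at the same locus, and how reads were divided between them is not given in the sources used here.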

How the data were processed

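Smart-seq libraries of mouse embryos (4 groups, 2 libraries each) were analysed from 1 deposited table. Per the submitters' processing notes, HISAT2 (listed as 4.8.2), Cufflinks 2.2.1 and build mm9 were used. Settings and annotation release were not given in the sources used here. As deposited, the values are FPKM, made by the authors, 1 per transcript entry and library, with replicates kept apart.

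FPKM were summed per gene symbol (41783 of 41876 entries matched). The 11853 genes that reached 1 FPKM in 2 or more libraries were kept, and log2(FPKM + 1) was fitted over all groups with limma 3.58.1 (trend, R 4.3.3, two-sided). Fold changes on this scale understate changes of low genes. Over 465 genes with whole-fragment values, the chi-square between the 2C libraries was 1.0 times its chance median, with 7.7% beyond the 95% point. The ratio was 34.49 in CX45, 27.08 in 8C and 35.21 in CX22, each over its own whole-fragment genes. Over wider sets of 2302 to 3073 genes it was 47.14 in CX45, 28.51 in 8C and 119.07 in CX22, against 1.19 in 2C. The 2C libraries therefore entered as their mean, leaving 7 samples and 3 residual degrees of freedom, and the lone 2C sample is assumed to vary like the others. Calls needed an adjusted p (Benjamini-Hochberg, all genes tested) below 0.05 and a log2 fold change of at least 1 in size. The depths come from FPKM steps, with 64.7% to 69.5% of low values within 0.05 of a whole fragment, and cover counting error only. 

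The fit was tested on simulated data. Alternatives were a pseudocount of 0.1, no filter, quantile normalization, the highest entry of each gene, 8 separate libraries, a replicate block, the adjusted p alone and each library left out. All members may be named; values per library are given for a fixed set of 22 central factors, the 5 highest and 5 lowest called per comparison, members called against the majority and members at 0 in a whole group. The members, lists and tests were chosen with earlier results of these data known.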

Additional observations from a re-analysis of the deposited data

How the results depend on the processing

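The number of members called for 8C over 2C was 34, and 31 to 36 under another pseudocount, no filter, quantile normalization, the highest entry or the adjusted p alone; for CX45 over CX22 it was 44, and 36 to 44; for CX45 over 2C it was 34, and 31 to 34. For CX22 over 2C the count of 1 became 0 after quantile normalization, 2 with the highest entry of each gene, and 11 with 8 separate libraries; for CX45 over 8C the count of 0 became 2 with 8 separate libraries. With 8 separate libraries all-gene calls for CX22 over 2C were 1611, beside 460 as reported. For CX45 over 8C they were 1038, beside 78 as reported and 0 without the filter or after quantile normalization. The labels give libraries with the same replicate number nothing else in common. Correlations of deviations between groups were 0 to 0.108, but Omt2b was listed at 0 in replicate 2 of both CX22 and 2C. The replicate block with 8 separate libraries called 42 (8C over 2C), 7 (CX22 over 2C) and 0 (CX45 over 8C). It also called 48 (CX45 over CX22) and 43 (CX45 over 2C). Leaving out 1 library at a time gave 16 to 42, 0 to 7, 0 to 0, 23 to 50 and 19 to 45 in the same order. The sign of 1 printed, uncalled difference turned: Ddx51 for 8C over 2C was 0.25 after quantile normalization, in place of -0.24; the cause was not tested. Depth limits members near 0 in CX22 and 2C, where 3 fragments on 2 kb are 0.117 to 0.154 FPKM.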
